A study of Canis lupus familiaris with 10 samples.

Results

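The transcripts of the immunoglobulin heavy chains mu and gamma were compared between stages of a benign Langerhans cell tumor of dogs that regresses on its own, named canine cutaneous histiocytoma (CCH). The members are the panel rows IGHM and IGHG, 2 of the 800 genes on the nCounter Canine IO Panel, taken by name, and both were above the filter on low values. The 10 formalin-fixed, paraffin-embedded tumors came from different pet dogs. In the scheme by Cockerell and Slauson, 5 were of group 1 (early CCH) and 5 of the lymphocyte-rich group 3 (late CCH). As the study describes this scheme, lymphocytes are absent in group 1 and increasingly infiltrate the tumor in group 3. The groups thus differ in lymphocytes by definition, and lymphocyte transcripts are not independent of the grouping. The dogs with early CCH were 0.5 to 5 years old where an age was given (4 of 5), and those with late CCH were 1.5 to 9 years old. They were of several breeds and of both sexes, with no treatment given in the labels. Each sample was RNA of an entire tumor cross section after tumor-adjacent tissue had been removed, so that fewer cells of a type and less RNA per cell cannot be told apart.

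An immunoglobulin is built from paired heavy and light chains, and the constant part of the heavy chain sets its class. Mu is the first heavy chain that a B cell makes, placed in the membrane as the B cell receptor or secreted as IgM. After class switching the same cell can make gamma, the heavy chain of IgG, the main antibody of serum and tissue. Plasma cells, the secreting end of the lineage, carry very large amounts of heavy chain transcript, and they lose most surface proteins of the B cell, among them CD20, the product of MS4A1. Resting B cells carry MS4A1 and modest amounts of mu. The heavy chain probes therefore read B cells and plasma cells together, whereas MS4A1 reads B cells. Which part of each constant region the probes bind, and which subclasses of canine IgG, was not given in the sources used here. Neither symbol was matched in the RefSeq gene table that was used for names.

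Both heavy chains were higher in late CCH. Values are normalized counts, the barcode counts of a probe after the authors' scaling to positive controls and housekeeping genes. IGHM had 49.7, 246, 907, 483 and 148 normalized counts in early tumors 1 to 5. In late tumors 1 to 5 it had 1667, 1763, 5549, 5136 and 1323. Every late tumor exceeded every early tumor, although the highest early tumor (early 3) and the lowest late tumor (late 5) lay close together. Early tumors had a mean of 367 ± 342 (SD, n = 5), and late tumors one of 3088 ± 2070 (SD, n = 5). On the log2(normalized count + 1) scale, IGHM differed by -3.41 (early versus late, SE 0.74), which is a 10.6-fold higher level in late CCH with a 95% interval from 3.38 to 33.4.

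IGHG had 97.3, 124, 576, 685 and 100.4 normalized counts in early tumors 1 to 5. In late tumors 1 to 5 it had 2639, 863, 4850, 1947 and 911. The stages again did not overlap, and early 4 came nearest to late 2, the lowest late tumor. Its mean was 317 ± 290 (SD, n = 5) across early tumors, and across late tumors it was 2242 ± 1637 (SD, n = 5). IGHG differed by -3.06 (SE 0.70) on the log2 scale, an 8.32-fold higher level in late CCH with a 95% interval from 2.84 to 24.4.

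**Figure D1:**
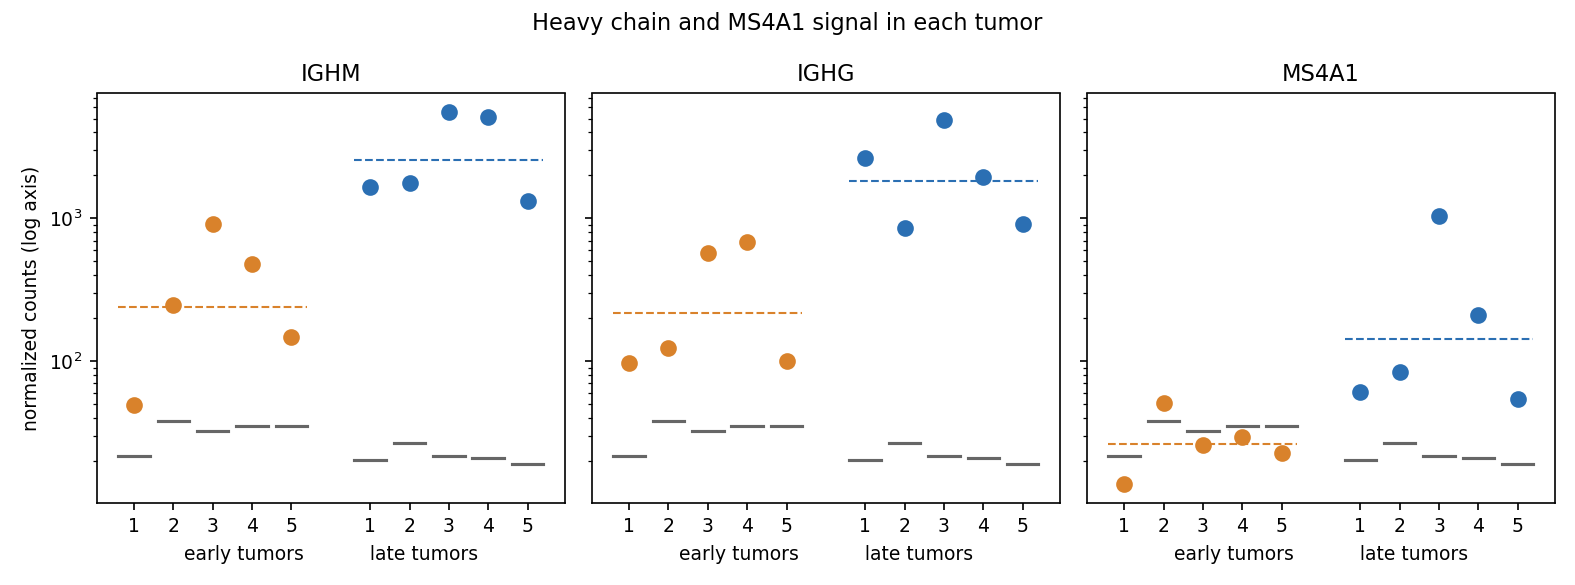
Normalized counts (log axis) of IGHM, IGHG and MS4A1 in each early (orange) and late (blue) tumor, with short grey lines for the background of that tumor and dashed lines for the geometric mean of each stage. Both heavy chains lie above background in all 10 tumors, whereas MS4A1 does so in 1 of 5 early tumors.

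In limma, both heavy chains passed a Benjamini-Hochberg (BH) adjusted p of 0.05, with 0.00712 for IGHM and 0.00879 for IGHG. Of 761 tested genes, 27.3% passed that threshold in the same direction and 35.7% in either. Neither passed the stricter call of the study's design, which joins a change of at least 2-fold to an adjusted p by Benjamini and Yekutieli (BY) no higher than 0.05, since the limma BY adjusted p was 0.0513 for IGHM and 0.0634 for IGHG. That call was made by limma for 9.20% of tested genes in the direction of late CCH. The study's own test, in the nSolver software, gave no significant genes for this nCounter comparison with BY adjustment. The calls given here are those of limma. IGHM had the 4th and IGHG the 12th largest difference among genes higher in late CCH, but by p-value they ranked 99th and 112th of 761. Stages without overlap, with the late tumors higher, were seen for 19.2% of tested genes, and for 24.6% in either direction. Without early 3, IGHM reached the BY call (-3.89, limma BY adjusted p = 0.0243). IGHG reached it without early 3 (-3.41, limma BY adjusted p = 0.0435) or without early 4 (-3.47, limma BY adjusted p = 0.0415). These were the early tumors highest in heavy chain. In the other fits without 1 tumor neither gene reached it, with limma BY adjusted p up to 0.150 for IGHM and 0.171 for IGHG.

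The low rank by p went with a wide spread between tumors of a stage. IGHM ranged 18.2-fold among early and 4.19-fold among late tumors, and IGHG ranged 7.04-fold and 5.62-fold. The SD of IGHM on the log2 scale was 1.60 in early and 0.98 in late CCH, and that of IGHG was 1.41 and 1.05. The median gene had an SD of 0.45 in early and 0.38 in late CCH. The heavy chain probes were counted at least 47 times in each tumor for IGHM and at least 53 times for IGHG. Signal over background (the mean plus 2 SD of the negative probes) was 2.28 times for IGHM in early 1 and 2.84 times for IGHG in early 5, the lowest values of each. In late CCH it was at least 65.4 times for IGHM and 32.01 times for IGHG.

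Depth and technical measures moved with the stages. Background lay between 21.8 and 38.2 normalized counts in early and between 19.2 and 26.9 in late tumors. Recovered barcode counts summed to between 484696 and 823763 in early and between 945399 and 1253083 in late tumors. The ratio of the strongest spiked-in controls lay between 2.09 and 2.17 in early and between 2.72 and 2.84 in late tumors, and per the study's sample sheet each stage had its own cartridge, so that cartridge and stage cannot be told apart. The percentage of long RNA fragments (DV200) in the labels was 64.5 to 71.2 in early and 71.2 to 75.8 in late CCH. With DV200 as a covariate the log2 difference was -2.27 for IGHM and -1.60 for IGHG, and both calls were lost (limma BH adjusted p = 0.218 and 0.286). For late 5 the label of DV200 differs from the study's RNA quality sheet.

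The balance of the heavy chains was then examined, because a ratio within a tumor does not depend on how that tumor was scaled. The probes may differ in how well they hybridize, so that the ratio is read between tumors and its distance from 1 is not read. IGHM over IGHG was 0.511, 1.99, 1.57, 0.704 and 1.47 in early tumors 1 to 5. In late tumors 1 to 5 it was 0.632, 2.04, 1.14, 2.64 and 1.45. The stages covered much the same range, with the lowest ratio in early 1 and the highest in late 4. Early tumors had a mean log2 ratio of 0.15 ± 0.83 (SD, n = 5), against 0.50 ± 0.80 (SD, n = 5) for late tumors. The difference of -0.35 did not pass the exact two-sided permutation test (p = 0.532, BH adjusted over 3 ratios 0.532), and its 95% interval, from inverting that test, ran from -1.53 to 0.88. This width does not show that the balance was the same in both stages.

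Counting intervals of the ratio did not overlap between some tumors of the same stage. In late 1 the ratio had a 95% counting interval from 0.589 to 0.677 (exact binomial, from the recovered counts of both probes), and in late 4 it ran from 2.51 to 2.78. Late 4 had 3.08 times the IGHM of late 1, whereas its IGHG was 0.738 times that of late 1. In early CCH, the interval of early 4 (0.604 to 0.820) lay below that of early 3 (1.36 to 1.82), although both tumors were the richest in heavy chain of their stage. These intervals cover counting error only and do not test a difference between tumors.

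**Figure D2:**
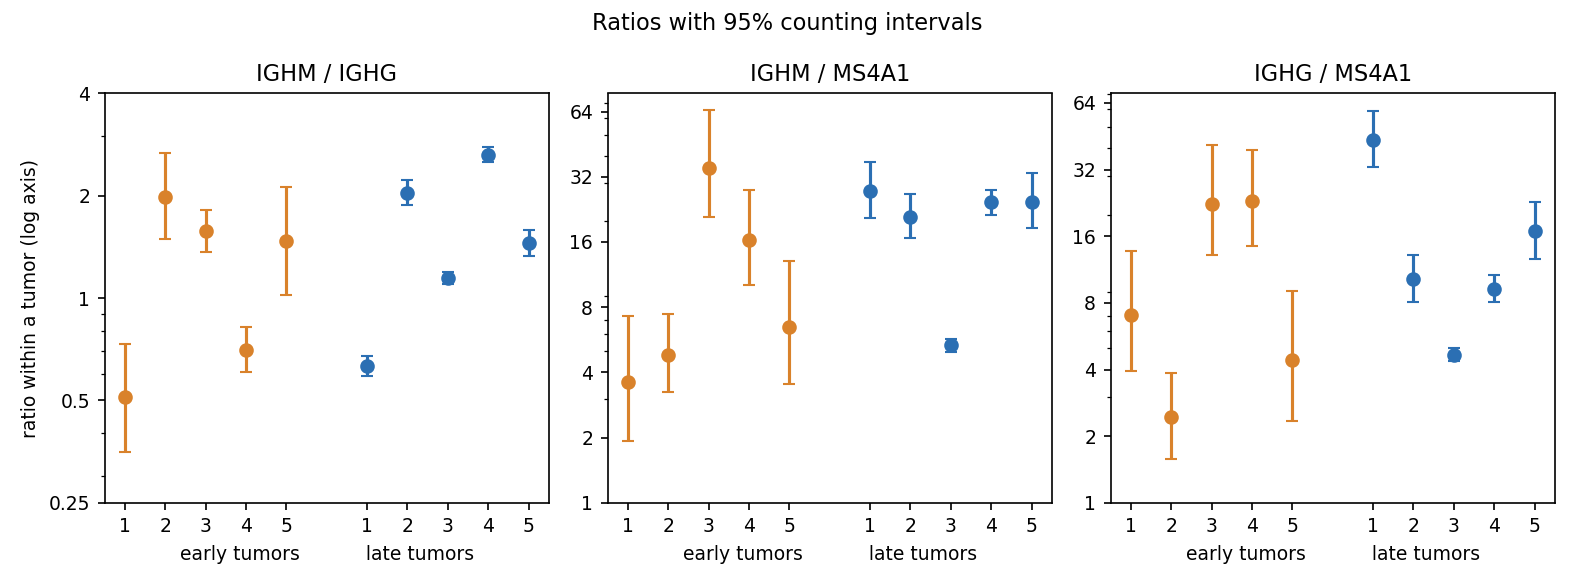
Ratios of normalized counts within each early (orange) and late (blue) tumor on log axes, with bars for the 95% counting interval. IGHM over IGHG spans 0.511 to 1.99 in early and 0.632 to 2.64 in late tumors, and in late 3 both heavy chains are low relative to MS4A1 (5.34 and 4.67).

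MS4A1, the CD20 of B cells, had 13.8, 50.9, 25.7, 29.7 and 22.7 normalized counts in early tumors 1 to 5. In late tumors 1 to 5 it had 60.8, 84.1, 1040, 211 and 54.0. Among early tumors only early 2 was above its background, and in late CCH the level of late 3 stood far above the other tumors. MS4A1 differed by -2.41 (SE 0.75, limma BH adjusted p = 0.0308) between the stages, or by -1.81 (limma BH adjusted p = 0.0888) with values raised to the highest background of any tumor. Without late 3 its difference was -1.70 (limma BH adjusted p = 0.0204). The BH call of MS4A1 was lost without early 1, early 3, early 5 or late 4, with limma BH adjusted p up to 0.0707. The heavy chains were thus measured in all early tumors, including the 4 in which MS4A1 was not above background.

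Relative to MS4A1, IGHM was 3.62, 4.83, 35.3, 16.3 and 6.50 in early tumors 1 to 5. In late tumors 1 to 5 this ratio was 27.4, 21.0, 5.34, 24.4 and 24.5. Late 3 had by far the lowest ratio of its stage, and the other late tumors lay close together. On the log2 scale the early mean was 3.15 ± 1.36 (SD, n = 5), and the late mean was 4.15 ± 0.98 (SD, n = 5). The difference of -0.997 did not pass the exact two-sided permutation test (p = 0.214, BH adjusted over 3 ratios 0.532), with a 95% interval from -2.59 to 0.94. It was -1.43 without late 3 (exact permutation p = 0.111) and -1.48 without early 3 (exact permutation p = 0.0476).

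IGHG relative to MS4A1 was 7.08, 2.43, 22.4, 23.1 and 4.42 in early tumors 1 to 5. The late tumors, in order, had ratios of 43.4, 10.3, 4.67, 9.23 and 16.9. Late 1 was the highest and late 3 the lowest late tumor. The log2 difference of -0.64 did not pass the exact permutation test (p = 0.452, BH adjusted over 3 ratios 0.532, n = 5 per stage), with a 95% interval from -2.70 to 1.28. Leaving out 1 tumor moved it between -0.20 (without late 1) and -1.01 (without early 4). The early ratios to MS4A1 divide by a signal at background and are therefore weakly determined. After subtracting the mean of the negative probes, the sign of both differences turned, but MS4A1 in early 5 was then below 0 and was set to a floor of 1, so that no size is read from them.

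CD79A, a signaling partner of the B cell receptor that plasma cells can keep, was above background in all 10 tumors and gave a firmer denominator. It had 202, 188, 354, 272 and 49.3 normalized counts in early tumors 1 to 5. The late tumors had 672, 1025, 2042, 1379 and 826, in the same order. All late tumors were higher than all early tumors, and CD79A passed both thresholds (-2.61, SE 0.51, limma BH adjusted p = 0.00406 and BY adjusted p = 0.0293). With CD79A as the denominator, the log2 differences were -0.80 for IGHM and -0.44 for IGHG (exact permutation p = 0.294 and 0.484, n = 5 per stage). The heavy chains and the B cell gene were thus higher together, with no difference in their ratio past the test.

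**Figure D3:**
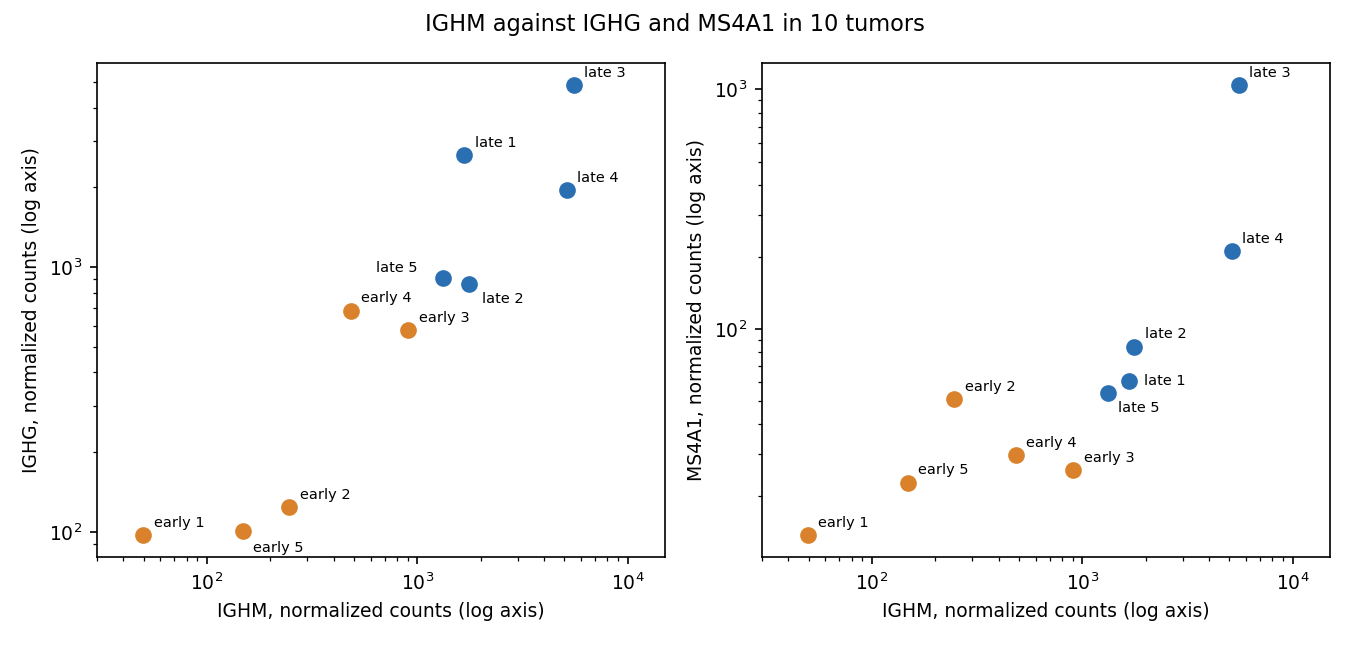
IGHM against IGHG (left) and against MS4A1 (right) in 10 tumors, as normalized counts on log axes, with early tumors in orange and late tumors in blue. The stages occupy separate ranges on each axis, and late 3 has the highest level of all 3 genes.

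The stages did not overlap for any of these genes, so a coefficient over all 10 tumors holds the difference between stages and is given as a description with no test. Pearson's r of log2 values was 0.93 between IGHM and IGHG (Spearman's rho 0.93), 0.83 between IGHM and MS4A1 (rho 0.95) and 0.77 between IGHG and MS4A1 (rho 0.90). With each stage mean subtracted, r was 0.80, 0.60 and 0.48. The order of tumors within a stage is described next. In late CCH, IGHM and MS4A1 ranked the tumors alike, with late 5 lowest, followed by late 1, late 2, late 4 and late 3. IGHG ranked them otherwise, with late 2 lowest and late 1 next to late 3 at the top. In early CCH, IGHM and IGHG shared the lowest tumors (early 1, early 5 and early 2, in that order) and differed only in which of early 3 and early 4 was highest.

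The early order of IGHM was also that of CD3E, a chain of the T cell receptor complex, which had 42.3, 716, 3402, 2090 and 275 normalized counts in early tumors 1 to 5. In late CCH, CD3E had 6134, 5024, 3853, 6011 and 5160 normalized counts. Late 3, the tumor highest in both heavy chains, was the lowest late tumor in CD3E. IGHM over CD3E was accordingly 1.44 in late 3 and 0.854 in late 4, while the remaining late tumors lay between 0.256 and 0.351. In early CCH this ratio was between 0.231 and 0.538, except for 1.17 in early 1, where both genes were low. T cell markers as a whole moved with the stages as well. All 11 tested of 12 fixed T cell markers passed the BH threshold with higher levels in late CCH, and their summed level ran from 647 to 11606 in early and from 17624 to 28356 normalized counts in late tumors. Of 10 tested NK and cytotoxic markers, 7 were higher in late CCH (median -2.12), with a summed level from 1083 to 7242 in early and from 9024 to 24460 normalized counts in late tumors. Macrophage markers were higher in late CCH for 2 of 7 genes (1 higher in each stage under the other scalings), a share near the 27.3% of all tested genes, with sums from 2911 to 7523 in early and from 4163 to 8026 in late tumors. None of 3 keratinocyte markers passed (1 was higher in early CCH under quantile normalization). The part of these cells in the heavy chain differences was not tested.

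The genes most like each heavy chain were found by Pearson's r of log2 values. Over the 10 tumors, which includes the difference between stages, IGHM was most like TRAT1 (0.96), CD247 (0.96), CD5 (0.96), NFKB2 (0.95) and BST2 (0.95). IGHG was most like TCF7 (0.95), CD5 (0.94), TRAT1 (0.94), MAP4K2 (0.94) and LTB (0.94). TRAT1, CD247 and CD5 belong to T cell receptor complexes or their regulation, TCF7 is a transcription factor of T cells, and LTB encodes a lymphotoxin chain of lymphocytes. Between the heavy chains r was 0.93, placing IGHG at rank 19 for IGHM and IGHM at rank 7 for IGHG among 760 other genes.

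After subtracting the mean of each stage, r describes which genes deviated with the heavy chains among tumors of a stage. Early tumors held 72.7% of the squared deviations of IGHM and 63.96% of those of IGHG, and so weigh most in these values. IGHM was then most like DDX58 (0.93), TRGC3 (0.93), CD80 (0.93), TRAT1 (0.92) and EPSTI1 (0.92), and IGHG was most like MX1 (0.90), IDH2 (0.89), ZEB1 (0.89), ISG15 (0.89) and OAS3 (0.89). DDX58, EPSTI1, MX1, ISG15 and OAS3 are induced by interferon, and TRGC3 is a constant gene of the gamma T cell receptor. The heavy chains had an r of 0.80 with each other. Genes of both lymphocyte lineages were among those with a high r. The 11 T cell markers had r from 0.75 to 0.86 with IGHM (median 0.82). This held for the early tumors, where all 11 deviated in the direction of IGHM (by the sign of the summed products), whereas in late tumors 8 of 11 deviated in the opposite direction. The 9 tested genes of the B cell receptor and surface list had r from -0.33 to 0.60 (median 0.45), with MS4A1 the highest at rank 133, and they deviated in the direction of IGHM for 5 of 9 genes in early and 9 of 9 in late tumors. The 13 tested genes of B cell receptor signaling and lineage factors had r from -0.37 to 0.90 (median 0.40), and SPIB (0.90, rank 8), POU2AF1 (0.86) and BLK (0.82) lay in or above the range of the T cell markers. The 6 plasma cell genes ran from -0.79 for IRF4 to 0.64 for SLAMF7. With IGHG the medians were 0.68 for T cell markers, 0.34 for receptor and surface genes and 0.29 for signaling and lineage genes, of which SPIB (0.83, rank 22) and POU2AF1 (0.77) were again high. In late tumors 9 of 11 T cell markers deviated opposite to IGHG, and 9 of 9 surface genes in its direction. Within the surface list CD79A was nearest to IGHG (0.63, rank 103). SPIB and the T cell genes TRAT1 and CD247 were above background in 2 of 5 and BLK in 1 of 5 early tumors. MS4A1 and CD79B were at or below background in most early tumors. Deviations at background carry little signal. The tested T cell markers other than CD247 were above background in at least 4 of 5 early tumors. The median r over all 760 genes was 0.18 for IGHM and 0.14 for IGHG, and these values describe 10 tumors without a test.

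**Figure D4:**
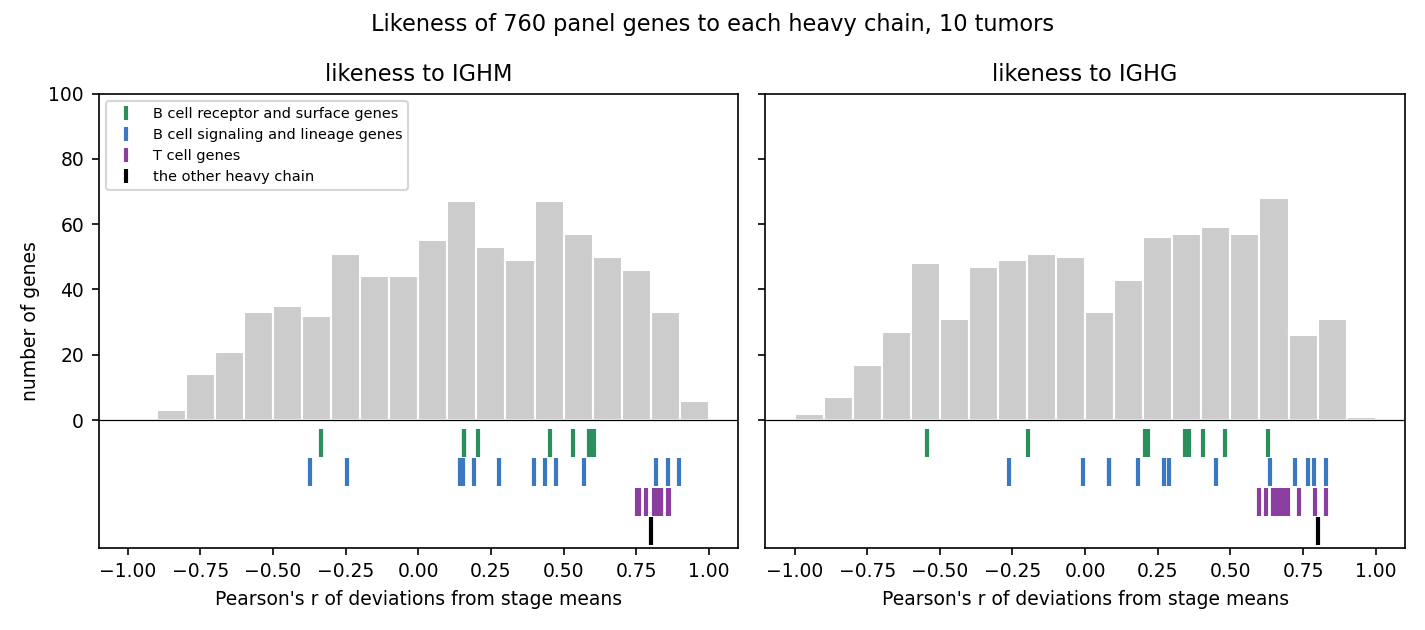
Number of panel genes (grey bars) by their Pearson's r with IGHM (left) or IGHG (right) over deviations from stage means in 10 tumors, with ticks for B cell receptor and surface genes (green), B cell signaling and lineage genes (blue), T cell genes (purple) and the other heavy chain (black). For IGHM, T cell genes lie at 0.75 to 0.86, B cell surface genes reach 0.60, and B cell signaling and lineage genes spread from -0.37 to 0.90, in values that early tumors weigh on most.

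The other genes of the B cell pathway gave a mixed picture. Of 9 tested B cell receptor and surface genes, 5 passed the BH threshold with higher levels in late CCH, 1 was higher in early CCH and 3 did not pass, with a median log2 difference of -1.87. Over all 761 tested genes the median was -0.18, and 208 were higher in late and 64 in early CCH at that threshold. That median moved to 0.21 when tumors were scaled by the geometric mean of tested genes (151 higher in late, 194 in early CCH) or by quantile normalization (144 and 180), and to 0.05 with trimmed mean scaling (172 and 148), whereas IGHM stayed between -2.92 and -3.41 and IGHG between -2.63 and -3.06. Beside MS4A1, the genes higher in late CCH included CD79A, CD79B (-2.60) and the complement receptor CR2 (-1.89, no longer past the threshold after geometric mean or quantile scaling). CD79B was above background in 0 of 5 early and 5 of 5 late tumors, or in 0 and 4 against the highest background of any tumor. CD180, a Toll-like receptor homolog of B cells and other antigen-presenting cells, was the gene higher in early CCH (1.00, limma BH adjusted p = 0.0114), the direction of 8.41% of tested genes. CD22 (0.17) had similar means of 1427 and 1420 normalized counts.

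Of 13 tested genes of B cell receptor signaling and lineage factors, 5 were higher in late and 1 in early CCH at the BH threshold, with a median of -0.75. These counts were 3 and 3 without late 3 and under geometric mean or trimmed mean scaling. Over all tested genes 27.3% were higher in late and 8.41% in early CCH. Nothing particular is read from these counts or from that of plasma cell genes below. The gene higher in early CCH was LYN, a kinase next to the B cell receptor that myeloid cells also use (0.31, limma BH adjusted p = 0.04998). The B cell kinase BLK had -1.43 (limma BH adjusted p = 0.0454), a call lost under those scalings. POU2AF1, a coactivator of immunoglobulin transcription, had -2.04 (limma BH adjusted p = 0.0126), and SPIB had -1.54 (limma BH adjusted p = 0.0460, lost under geometric mean and trimmed mean scaling). PAX5, the factor of B cell identity, had -1.52 but did not pass (limma BH adjusted p = 0.163), with a wide late spread. Levels of 3 of 6 tested genes of plasma cells were higher in late CCH and the other 3 did not pass, with a median of -1.17. CD38 (-2.59), SLAMF7 (-2.13) and PRDM1 (-1.88), which activated T cells can also express, were the higher genes. TNFRSF17, the B cell maturation antigen of plasma cells, had 68.2 ± 39.5 in early and 65.9 ± 23.0 normalized counts in late CCH (SD, n = 5 each), and its difference of -0.09, which turned positive under each other scaling, did not pass (limma BH adjusted p = 0.893). IRF4, a factor of plasma cells and of other lymphocytes and dendritic cells, had -0.46 (0.06 under quantile normalization) and did not pass (limma BH adjusted p = 0.163).

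Of 30 tested genes of B cell survival and help, 12 were higher in late CCH, 1 was higher in early CCH and 17 did not pass, with a median of -0.47 that turned to 0.11 under quantile normalization. The genes higher in late and in early CCH numbered 9 and 6 under geometric mean, 8 and 4 under quantile and 10 and 3 under trimmed mean scaling. Over all tested genes 27.3% were higher in late and 8.41% in early CCH, and nothing particular to this list is read from its counts. ICOS (-2.75), CXCR4 (-2.63) and CD27 (-2.53) had large differences past the BH threshold. CXCL13, the chemokine that draws B cells into follicles, had -2.52 and did not pass (limma BH adjusted p = 0.151). IL21 (-1.96), the helper cytokine for antibody-forming cells, was past the same threshold (limma BH adjusted p = 0.00879). The survival factor TNFSF13B (-0.06, positive under each other scaling) and its receptor TNFRSF13C (0.58) did not pass, whereas TNFRSF13B (-1.002) did, except under geometric mean scaling. IL10 was the gene higher in early CCH (1.41). With DV200 as covariate, fewer genes were higher in late CCH. They numbered 0 of 9 B cell receptor and surface genes, 1 of 13 for signaling and 1 of 6 for plasma cells. Counts were 0 of 30 here, 1 of 11 for T cells and 0 of 10 for NK and cytotoxic markers. Over all tested genes the count was 28 of 761, so nothing particular to these lists is read from the fall.

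Of 4 tested receptors for the Fc part of antibodies, FCER1A, the alpha chain of the high-affinity IgE receptor, was higher in early CCH (2.44). FCGR1A (0.20), which binds IgG, FCER1G (0.22) and FCAR (0.26) did not pass. Under geometric mean and quantile scaling, however, FCER1G and FCAR passed as higher in early CCH. With DV200 as covariate, 0 of the 4 receptors passed. The tested markers of Langerhans and dendritic cells, 12 in number, were mixed, with 4 higher in early CCH, 3 higher in late CCH and 5 that did not pass. FLT3 (2.49), FCER1A, CCR6 (1.74) and CD86 (0.97) were higher in early CCH, whereas XCR1 (-1.60), IRF8 (-1.43) and CD83 (-1.30) were higher in late CCH. CD207, the langerin of Langerhans cells, was above background in 1 of 5 early and 1 of 5 late tumors, and CD1C in 0 of 5 early and 5 of 5 late tumors, but in 0 and 1 against the highest background of any tumor. Under geometric mean scaling 5 of these markers were higher in early and 2 in late CCH. With DV200 as covariate these counts were 2 and 0, against 17 and 28 of all 761 tested genes.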

How the data were processed

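Transcripts of 5 early and 5 late tumors were counted with the nCounter Canine IO Panel. Per the study's methods, the authors normalized the barcode counts in nSolver to positive controls and then to housekeeping genes, and the deposited values are this normalized signal on a linear scale. The 14 control probes are unscaled. Background subtraction was not given in the sources used here. The gene values of a sample were whole multiples of 1 step, within 0.0051 for at least 99.4% of genes, and dividing by it gave the recovered counts used for depth, background and counting intervals (95%, exact binomial), which cover counting error only. Since the control rows are not on that scale, no count test was run.

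Groups follow the sample titles. Genes with a mean of 20 or more (761 of 800) were fitted in R 4.3.3 with limma 3.58.1, by lmFit and eBayes (trend allowed), with late CCH as baseline and no covariate. The scale was log2(normalized count + 1), which understates the change of low genes. A test on simulated data preceded it. Ratios were tested by exact two-sided permutation in scipy 1.17.1 (5 against 5, smallest p 0.00794). Named genes are the heavy chains, MS4A1, up to 4 genes with the largest difference per list, the 5 nearest in pattern to each heavy chain, and a fixed set of B and plasma cell genes and CD3E. CD180, CD22, LYN, IL21, IL10, FLT3, CCR6, CD86, XCR1, IRF8, CD83, CD207 and CD1C lie outside this rule and were named after their values were seen. XBP1, JCHAIN and SDC1 were not analysed here, and some panel genes are not reported here. Members and lists were chosen with earlier results of these data known. Alternatives covered the pseudocount, the filter, scaling, trend, array weights, DV200, male dogs, the replicate number as a block and each sample left out. Raising values to the highest background of any tumor was an alternative chosen after seeing the data. Same-numbered tumors come from different dogs.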

Additional observations from a re-analysis of the deposited data

Results flagged for a closer look

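A tumor far from the other 4 of its stage (gap to the nearest tumor over the range above 0.71, on normalized counts or on log2 ratios) was found in 12 of 94 groups checked. The threshold flags about 5% of groups of independent, normally distributed values, which does not apply to skewed counts of related genes, and 8 of the 11 gene groups concerned were of 1 tumor, late 3. The ratio of IGHM to MS4A1 was the only ratio concerned, with a log2 value of 2.42 in late 3, where the remaining late tumors had 4.37 to 4.76. In late 3 the levels of MS4A1 (1040, others up to 211), CD79B (481, others up to 123), CR2 (898, others up to 318), PAX5 (784, others up to 202), POU2AF1 (630, others up to 243) and TNFRSF13C (2497, others up to 827) were also high, as were the interferon-induced genes MX1 (806, others up to 319) and ISG15 (549, others up to 216). IGHM and IGHG were highest in late 3 without standing apart in this way. Elsewhere, TNFRSF13C was 1713 in early 1 against 921 to 1148, CXCL13 was 2853 in early 2 against 47.6 to 402, and FCGR1A was 279 in late 2 against 115 to 154. No explanation was tested.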

How the results depend on the processing

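The signs of the IGHM, IGHG and MS4A1 differences and of the IGHM to IGHG ratio were the same under all alternatives. The replicate block is an alternative that cannot change them. IGHM passed the BY call at a pseudocount of 10 (-3.33) and with genes under a mean of 50 left out (-3.41). With DV200 as covariate the BH call was lost for IGHM (-2.27), IGHG (-1.60) and MS4A1 (-1.44), and MS4A1 also lost it among male dogs (-2.53; 3 early, 4 late) and with the background floor (-1.81). Limma called 85 genes at BY and 2-fold, against 0 with DV200, 0 among male dogs and 1 with the replicate block. At BH it called 272, against 45 with DV200 and 133 among male dogs. At an unadjusted p under 0.05 limma had 345 genes, against 197 with DV200, 278 among male dogs and 321 with the replicate block. Without 1 tumor the range was -3.89 to -2.85 for IGHM, -3.47 to -2.70 for IGHG, -2.76 to -1.70 for MS4A1, 39 to 98 genes at BY (39 without late 1, 41 without late 4, 47 without early 5, 48 without late 2, 52 without late 5) and 211 to 269 at BH, -0.64 to -0.08 for the IGHM to IGHG ratio, -1.48 to -0.66 for IGHM to MS4A1 and -1.01 to -0.20 for IGHG to MS4A1. With negative probes subtracted, IGHM to MS4A1 was 0.46 and IGHG to MS4A1 was 0.80, where MS4A1 of early 5 was set to a floor of 1, so the sizes depend on that floor. The replicate block kept the BH calls of IGHM and IGHG and gave no BY call. Its differences (-3.41 and -3.06) equal the main ones by design, since each number had 1 tumor per stage. The block lowered the SE of IGHM from 0.74 to 0.37 and that of IGHG from 0.70 to 0.43. Over all tested genes, only 1 of 5 same-numbered pairs deviated together by more than 0.1 (r from -0.20 to 0.16). The numbers thus showed no pairing over the panel, and same-numbered tumors come from different dogs. The coefficients over all tumors (0.93 for IGHM and IGHG, 0.83 for IGHM and MS4A1, 0.77 for IGHG and MS4A1) were 0.89, 0.79 and 0.68 without early 1 and early 5, the tumors farthest from the median, and 0.80, 0.60 and 0.48 on deviations from stage means. For ratios among male dogs the smallest exact permutation p is 0.0571, so none could pass. Except where stated, the cause was not tested.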
